A study of Mus musculus with 17 samples.

Results

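WT1 binding was compared between 2 mouse models of podocyte injury by adriamycin (doxorubicin, ADR in the labels): whole glomeruli of ADR-injected BALB/cJ mice, and podocytes purified at day 9 after ADR from mTmG-Nphs2cre mice. The material was the pair of WT1 peak lists deposited for these groups, with 16634 peaks for ADR glomeruli and 31949 for day 9 podocytes, or 48583 of the 107761 peaks in the 5 lists of the series. Peaks of both lists were matched when they overlapped by at least 1 bp, in either direction. Behind the lists stood 4 libraries of ADR glomeruli and 2 of day 9 podocytes, of 17 libraries in the series. All animals were 7 to 8 weeks old and labelled wildtype. In mTmG-Nphs2cre mice a fluorescent reporter is switched by a Cre recombinase under the promoter of the podocin gene, so that podocytes can be purified from the other cells of the kidney. Glomeruli from 2 kidneys went into each glomerular immunoprecipitation. The labels give no day after ADR for the glomeruli, and their protocol speaks of 3 podocyte experiments where 2 libraries are labelled day 9. Vehicle lists served as a backdrop, from glomeruli of PBS-injected BALB/cJ mice (4 libraries) and podocytes of PBS-injected mTmG-Nphs2cre mice (3 libraries), and 1 further podocyte list came from day 14 after ADR (2 libraries).

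WT1, a transcription factor with zinc fingers, is required by podocytes throughout life. In the kidney filter it marks the nuclei of podocytes, the cells whose interlaced foot processes cover the glomerular capillaries. It binds GC-rich DNA at promoters and at distal enhancers, and mutations in the human gene cause glomerular disease. Adriamycin injures podocytes and produces proteinuria and glomerular scarring in susceptible strains, among which BALB/c mice are widely used, while strains on other backgrounds often resist the drug. A whole glomerulus also holds endothelial, mesangial and parietal epithelial cells, of which parietal cells can contain WT1.

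Chromatin immunoprecipitation followed by sequencing (ChIP-seq) finds stretches where fragments pulled down with an antibody, here against WT1, pile up above background, and a peak caller reports each as a peak with its fold enrichment at the summit. Each group had 1 peak list in the files, so that no difference between groups could be set against the spread between animals and no test was run. Strain, tissue preparation and possibly the time after ADR differed together between the lists and cannot be told apart, and neither can fewer cells with a site and less binding per cell. Read depth is unknown. Input libraries are labelled for PBS and ADR glomeruli only, 1 each, and which control stood behind each list, and so what its fold enrichment is relative to, is not known here. Intervals are 95% Wilson intervals that cover the counting error of peaks only. Fold enrichment is the authors' value. It is printed for single sites as each list gives it, but fold values of different lists were not compared, and strength was read only as a rank within a list, given as a percentile from 0 for the weakest peak to 100 for the strongest. The peak lists hold no expression, so that the labelled cell types could not be checked against markers. Genes are not named because no annotation of the mm9 build was used here; coordinates are 1-based in mm9.

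Most WT1 sites of ADR glomeruli were also sites in day 9 podocytes, while the larger part of the day 9 sites was not seen in ADR glomeruli. A day 9 peak overlapped 13326 of the ADR glomerular peaks (80.1%, interval 79.5 to 80.7), which left 3308 unmatched. An ADR glomerular peak overlapped 12948 of the day 9 peaks (40.5%, 39.99 to 41.1), which left 19001 unmatched. The ADR glomerular list had 0.521 times as many peaks as the day 9 list and covered 5.80 Mb against 16.1 Mb. When the 16634 day 9 peaks of lowest caller p-value were used in place of the whole day 9 list, the shares were close, at 60.5% of ADR glomerular and 58.1% of day 9 peaks. In the vehicle pair, 66.4% of PBS glomerular peaks had a PBS podocyte peak and 80.7% of PBS podocyte peaks had a PBS glomerular peak, with the glomerular list there the longer by a factor of 1.24.

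Matches were rarely marginal. The overlap had a median of 310 bp over 13411 overlapping pairs, and 6 pairs overlapped by 10 bp or less. Just outside the rule, 10 unmatched ADR glomerular peaks and 10 unmatched day 9 peaks lay within 10 bp of a peak of the other list. The nearest day 9 peak was a median of 13226.5 bp from an unmatched ADR glomerular peak, and 458 of the 3308 (13.8%) had one within 1 kb. For unmatched day 9 peaks on chromosomes with ADR glomerular peaks the median was 21301 bp, and 1414 (7.45%) had an ADR glomerular peak within 1 kb. Of these day 9 peaks 3378 (17.8%) lay 100 kb or more from any ADR glomerular peak, against 292 (8.83%) of the unmatched ADR glomerular peaks in the other direction.

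Recovery rose with strength from decile 2 upward in ADR glomeruli, and in day 9 podocytes it was lowest in decile 3 and highest in the strongest. Each list was cut into 10 deciles of fold enrichment. In ADR glomeruli the share with a day 9 peak was 63.1% (60.7 to 65.4) in the weakest decile and 98.9% (98.2 to 99.3) in the strongest. In day 9 podocytes it was 45.9% (44.2 to 47.6) in the weakest decile, 24.96% (23.5 to 26.5) in decile 3 from below and 74.6% (73.1 to 76.1) in the strongest. The weakest decile of the day 9 list was thus matched more often than each of the 7 deciles above it. Ranked by caller p-value instead, a ranking tried after the data were seen, the weakest decile of day 9 peaks was matched in 14.8% and the strongest in 87.4%. In day 9 podocytes the weakest decile by fold enrichment had a median −log10 p of 9.26 at a median enrichment of 3.34-fold, and decile 3 had 9.84 at 4.94-fold.

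**Figure D1:**
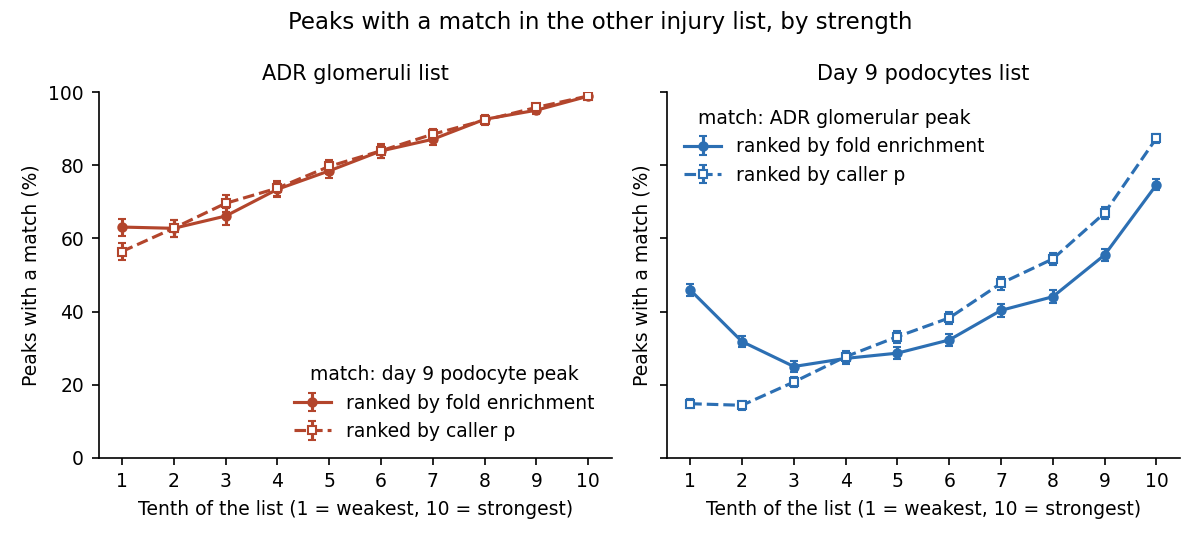
Share of peaks with a match in the other injury list (y axis, %) by decile of the list from weakest to strongest (x axis), for ADR glomeruli on the left and day 9 podocytes on the right, ranked by fold enrichment (filled circles) or caller p-value (open squares), with 95% Wilson intervals as bars. The ADR glomerular list runs from 63.1% to 98.9% by fold enrichment, and the day 9 list dips to 24.96% in decile 3 before reaching 74.6%.

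The strongest WT1 sites of ADR glomeruli were nearly all bound in day 9 podocytes, and the reverse held less often. Among the 1000 strongest ADR glomerular peaks, all at 18.8-fold enrichment or more, 997 (99.7%, 99.1 to 99.9) had a day 9 peak, against 80.1% of the whole list. Among the 1000 strongest day 9 peaks, all at 38.8-fold or more, 884 (88.4%, 86.3 to 90.2) had an ADR glomerular peak, against 40.5% of the whole list. Ranked by caller p-value, 94.5% of the 1000 strongest day 9 peaks had one. In the vehicle pair 990 of the 1000 strongest PBS glomerular and 986 of the 1000 strongest PBS podocyte peaks had a match. The ADR glomerular list also missed strong sites of its own vehicle list. Of the 1000 strongest PBS glomerular peaks 870 (87.0%, 84.8 to 88.9) had an ADR glomerular peak. The ADR glomerular list was shorter than both, with 16634 peaks against 31949 for day 9 and 29082 for PBS glomeruli.

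A minority of the strongest sites of each injury list were among the strongest of the other. Of the 1000 strongest ADR glomerular peaks 243 (24.3%, 21.7 to 27.1) overlapped one of the 1000 strongest day 9 peaks. The corresponding number was 491 (49.1%) for PBS glomeruli in PBS podocytes, 280 for ADR glomeruli in PBS glomeruli and 700 for day 9 in PBS podocytes. The best day 9 match of a strong ADR glomerular peak had a median percentile of 89.5, with quartiles of 78.7 and 96.7. The best ADR glomerular match of a strong day 9 peak had a median percentile of 85.0, with quartiles of 65.1 and 94.6, and 129 of these 884 matches lay in the weaker part of the ADR glomerular list, below percentile 50.

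Most sites strong in both injury models were also high in the vehicle lists. All 243 had a peak in PBS glomeruli, at a median percentile of 97.3 (quartiles 91.8 and 99.4, lowest 22.3). Of the 1000 strongest ADR glomerular peaks 993 had one there, the best match at a median percentile of 92.4. All 243 had a peak in PBS podocytes as well, at a median of 98.2 (quartiles 96.7 and 99.3, lowest 50.9). Of the 1000 strongest day 9 peaks 997 had one there, at a median of 97.6. Presence at all 243 was thus near the share for strong peaks of either list. The highest mean percentile belonged to a site at 51719702 to 51720679 on chromosome 3, with 41.1-fold enrichment in ADR glomeruli and 116-fold in day 9 podocytes, and percentiles of 99.5 in PBS glomeruli and 99.98 in PBS podocytes. A site at 43419665 to 43420398 on chromosome 1 had 43.5-fold enrichment in ADR glomeruli and 95.2-fold in day 9 podocytes, against percentiles of 97.7 in PBS glomeruli and 99.8 in PBS podocytes. The other 3 leading sites were at 174366835 to 174367345 on chromosome 1 (37.0-fold in ADR glomeruli, 115-fold in day 9 podocytes), 50786234 to 50786682 on chromosome 16 (36.1-fold, 137-fold) and 95033949 to 95034438 on chromosome 13 (36.6-fold, 91.8-fold). All 5 had a day 14 podocyte peak at percentile 99.2 or above, where 92.1% of the strongest day 9 decile had a day 14 peak.

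Strong ADR glomerular sites missing from day 9 podocytes numbered 3 of 1000. All 3 had a peak in PBS glomeruli, as had 990 of the 997 strong matched sites and 82.6% of all ADR glomerular peaks. In PBS podocytes 1 of the 3 had a peak, beside 973 of the 997, 18.3% of all unmatched ADR glomerular peaks and 71.4% of the whole list. The 3 were chosen for lacking a day 9 podocyte peak, so that the choice bears on their presence in PBS podocytes too. The strongest was at 30663024 to 30663536 on chromosome 2, with 23.3-fold enrichment and percentile 97.1 in ADR glomeruli. It reached percentile 86.8 in PBS glomeruli and 2.45 in PBS podocytes. A site at 84575896 to 84576297 on chromosome 3 had 21.9-fold enrichment in ADR glomeruli, percentile 49.3 in PBS glomeruli and no peak in any podocyte list. A site at 88897094 to 88897519 on the same chromosome had 21.2-fold enrichment in ADR glomeruli, percentile 70.8 in PBS glomeruli and again no podocyte peak, although a day 9 peak lay 2984 bp away. Next in the ADR glomerular list, just below the 1000 strongest, came a site at 93713056 to 93713504 on chromosome 1 (18.5-fold) with no peak in the 4 other lists. A site at 5929502 to 5929911 on chromosome 19 (18.4-fold) followed, with a PBS glomerular peak at percentile 15.6 and no podocyte peak.

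Strong day 9 sites missing from ADR glomeruli numbered 116, and these sites were bound in vehicle podocytes as well. All 116 had a peak in PBS podocytes, as had 881 of the 884 strong day 9 sites that ADR glomeruli had, against 64.0% of all day 9 peaks. All 116 had a peak at day 14, as had 878 of those 884, against 20.5% of all day 9 peaks. In PBS glomeruli 106 of them (91.4%, 84.9 to 95.3) had a peak and 10 did not, where 67.3% of all day 9 peaks had one, against 881 of the 884. Where present in PBS glomeruli, the 106 had a median percentile of 92.3 (quartiles 81.9 and 96.5), beside 96.5 (90.1 and 98.8) for the 881. At day 14 the 116 stood at a median percentile of 85.9, beside 92.7 for the 878 recovered sites that had a day 14 peak.

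At 68918483 to 68919411 on chromosome 2 day 9 podocytes had 84.1-fold enrichment, beside percentiles of 99.96 in PBS glomeruli and 99.8 in PBS podocytes, and the nearest ADR glomerular peak was 3183 bp away. At 32370755 to 32371693 on chromosome 5 day 9 podocytes had 81.0-fold enrichment, beside percentiles of 88.0 in PBS glomeruli and 99.8 in PBS podocytes. At 92107208 to 92107889 on chromosome 15 the day 9 enrichment was 79.2-fold and no ADR glomerular peak lay within 703389 bp. A site at 7056595 to 7057559 on chromosome 17 had 77.0-fold enrichment at day 9 and percentile 99.3 in both PBS lists. The site at 3630470 to 3631297 on chromosome 4 (74.5-fold at day 9) differed from these in lacking a PBS glomerular peak as well, with percentiles of 98.3 in PBS podocytes and 98.1 at day 14.

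Over all peaks, matched sites were mostly vehicle sites, and unmatched sites were often absent from one vehicle list or both. Of the 13326 matched ADR glomerular peaks 10797 (81.0%) overlapped a peak in both vehicle lists and 859 (6.45%) in neither. Of the 3308 unmatched ones 459 (13.9%) did so in both, 1295 (39.1%) in PBS glomeruli alone, 145 (4.38%) in PBS podocytes alone and 1409 (42.6%) in neither. These unmatched peaks were weak and narrow, with a median enrichment of 5.77-fold and width of 242 bp, against 7.83-fold and 324 bp for matched ones. Of the 19001 unmatched day 9 peaks 7125 (37.5%) had a peak in both vehicle lists, 2667 (14.04%) in PBS glomeruli alone, 2369 (12.5%) in PBS podocytes alone and 6840 (36.0%) in neither. Their median enrichment was 6.20-fold, against 8.60-fold for matched day 9 peaks.

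The vehicle glomerular list held a peak at 9792 (51.5%) of the day 9 sites that ADR glomeruli lacked. Its share was 90.3% at matched day 9 sites and 67.3% at all day 9 sites. The sites were sorted by presence in ADR glomeruli, of the same strain and preparation, where 82.6% of peaks had a PBS glomerular peak. The choice thus bears on the PBS glomerular shares too. At day 14, 3 of the unmatched ADR glomerular peaks (0.0907%) and 1740 (9.16%) of the unmatched day 9 peaks had a peak, beside 36.8% of matched ADR glomerular and 37.3% of matched day 9 peaks. The day 14 list had 6694 peaks, and 6565 day 9 peaks overlapped it. Choosing ADR glomerular peaks without a day 9 peak thus left few that could have a day 14 peak, and 0.0907% cannot be compared with 9.16%. Over the whole lists, 29.5% of ADR glomerular peaks had a day 14 peak, against 20.5% of day 9 peaks.

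**Figure D2:**
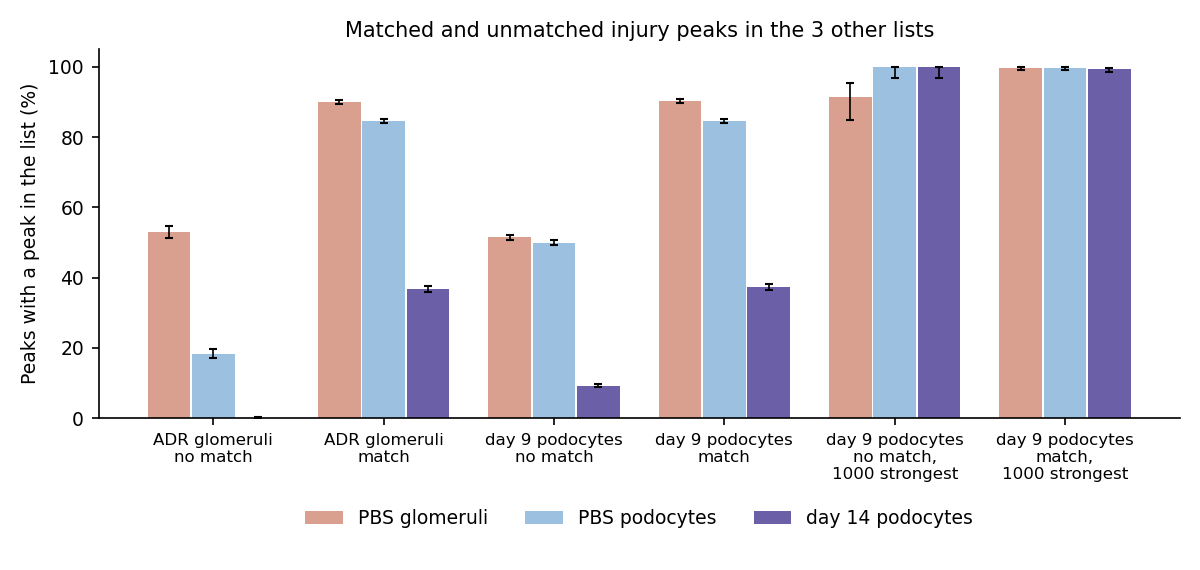
Share of ADR glomerular and day 9 podocyte peaks (y axis, %) that overlap a peak of PBS glomeruli, PBS podocytes or day 14 podocytes, for peaks without and with a match in the other injury list and, for day 9, for the 1000 strongest peaks alone; bars carry 95% Wilson intervals. Unmatched ADR glomerular peaks reach 53.0% in PBS glomeruli and 18.3% in PBS podocytes, while the 116 strong unmatched day 9 peaks stand at 91.4%, 100% and 100%.

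The order of strength was shared only in part between the injury lists. In 12364 pairs each peak was the single partner of the other, and over these Spearman's rho of fold enrichment was 0.399, given as a description since sites within a list share libraries and background. With caller p-values in place of fold enrichment rho was 0.533. The vehicle pair had rho of 0.606 over 17960 such pairs, and ADR glomeruli with PBS glomeruli had 0.508 over 13118. The percentile in ADR glomeruli minus that in day 9 podocytes had a median of -1.16, with quartiles of -23.0 and 19.1, and 3405 pairs (27.5%) stood within 10 points of each other. ADR glomeruli stood at least 50 points lower in 1098 pairs and at least 50 points higher in 759. The percentiles come from lists of unlike length, and the counts varied with the peaks that entered. With percentiles taken within the matched pairs they were 867 and 651, with the same direction the more frequent. With lists of equal length, where the day 9 peaks of weakest caller p-value were left out, they were 524 and 1412 of 9239 pairs. There the other direction was the more frequent. In that setting day 9 percentiles were taken anew in the shortened list, while the ADR glomerular list stayed whole. How far this accounts for the change was not tested. As deposited, ADR glomeruli stood at least 50 points below PBS glomeruli in 983 of 13118 pairs and that far above in 395. PBS glomeruli stood that far below PBS podocytes in 414 of 17960 pairs and that far above in 1068.

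**Figure D3:**
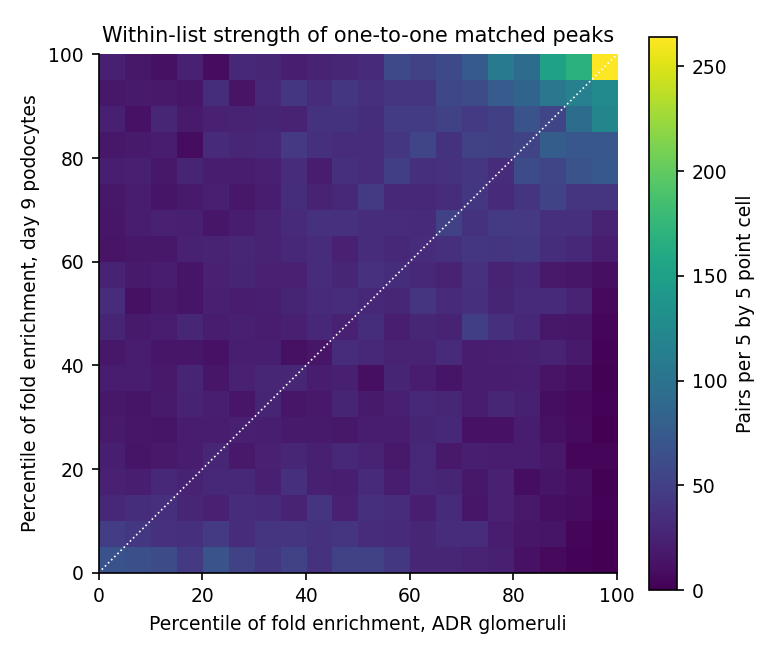
Pairs of matched peaks by percentile of fold enrichment in ADR glomeruli (x axis) and day 9 podocytes (y axis), counted in cells of 5 by 5 points (colour scale), with the line of equal percentile dotted. Pairs gather in the corner where both percentiles are highest and spread widely elsewhere, as the rho of 0.399 states.

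Regions with 1 peak in ADR glomeruli, day 9 podocytes and both vehicle lists numbered 9666. The groups below were chosen by the difference between ADR glomeruli and day 9, so that their medians in those 2 lists follow from the choice. Where ADR glomeruli stood at least 50 points below day 9 (943 regions), the median percentile was 18.7 in ADR glomeruli and 87.9 at day 9, but 77.4 in PBS glomeruli and 79.9 in PBS podocytes. Here ADR glomeruli alone were low, and the PBS glomeruli minus PBS podocytes difference had a median of -0.838 points. Where ADR glomeruli stood at least 50 points above day 9 (538 regions), the median was 76.3 in ADR glomeruli and 10.9 at day 9, with 62.3 in PBS glomeruli and 15.8 in PBS podocytes. Over all 9666 regions the medians were 62.6 in ADR glomeruli, 70.3 at day 9, 73.0 in PBS glomeruli and 64.0 in PBS podocytes, with a vehicle difference of 5.51 points, so that in the 538 regions both podocyte lists were low and PBS glomeruli also lay below their own median. The vehicle difference had the same sign as the injury difference in 481 of the 538 regions (89.4%), in 505 of the 943 (53.6%) and in 5852 (60.5%) of all 9666. The last share pools both signs and is no baseline for groups chosen by sign. Over all regions PBS glomeruli stood at least 50 points above PBS podocytes in 713 and at least 50 points below in 190. This lean favours the same sign in the 538 regions and the opposite sign in the 943. Day 9 and PBS podocyte ranks also went together (rho of 0.866), so that the choice bears on the PBS podocyte rank too. These shares thus cannot be compared with each other.

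Over the same 9666 regions the ADR glomerular list had the lowest rank correlations of the 4 lists, with rho of 0.369 to day 9, 0.467 to PBS glomeruli and 0.377 to PBS podocytes. Day 9 podocytes had rho of 0.866 to PBS podocytes and 0.635 to PBS glomeruli, and the 2 vehicle lists had 0.645. The part that the number of libraries, depth or the efficiency of the immunoprecipitation may have in this was not tested.

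**Figure D4:**
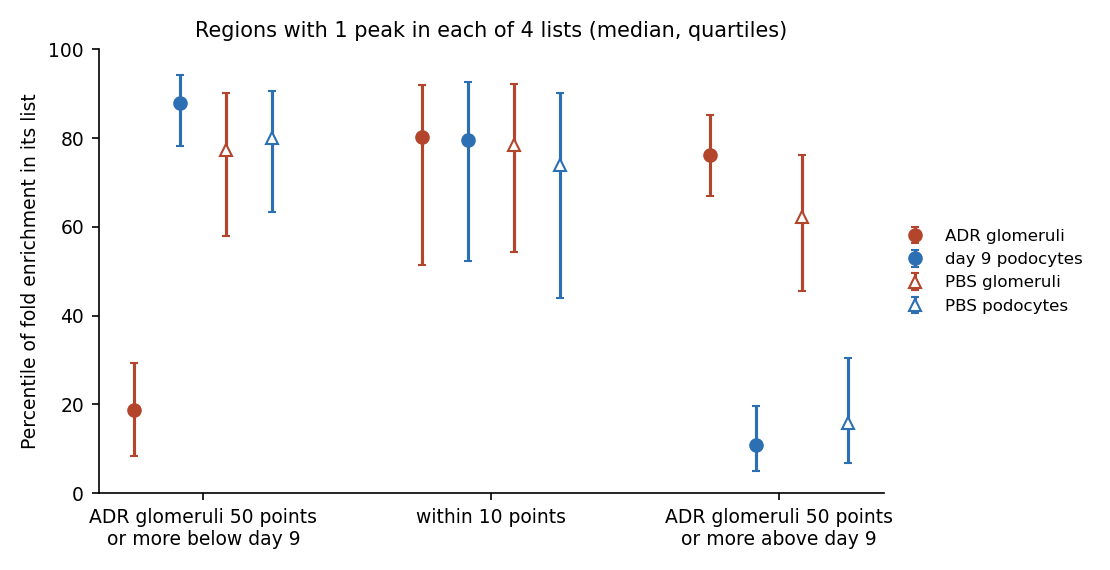
Percentile of fold enrichment within its own list (y axis; median as symbol, quartiles as bars) for regions with 1 peak in each of 4 lists, grouped by the difference between ADR glomeruli and day 9 podocytes. In the left group (943 regions) ADR glomeruli alone are low, at a median of 18.7, and in the right group (538 regions) both glomerular lists, at 76.3 and 62.3, lie above both podocyte lists, at 10.9 and 15.8.

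Single sites stood far apart in both directions. At 156996045 to 156996222 on chromosome 2 the percentile was 0.222 in ADR glomeruli (3.27-fold) and 98.6 at day 9 (51.6-fold), beside 75.6 in PBS glomeruli and 90.1 in PBS podocytes. At 107216805 to 107217089 on chromosome 11 the percentile was 1.80 in ADR glomeruli and 98.9 at day 9, beside 99.0 in PBS glomeruli and 97.2 in PBS podocytes. A site at 12688102 to 12688291 on chromosome 1 was alike, with 0.201 in ADR glomeruli and 97.3 at day 9, beside 97.2 in PBS glomeruli and 98.5 in PBS podocytes. The other 2 with the lowest ADR glomerular standing, at 109801202 to 109801519 on chromosome 2 and 75734713 to 75735126 on chromosome 3, stood at percentile 1.24 in ADR glomeruli, 98.7 and 98.5 at day 9, and 70.7 and 87.9 in PBS glomeruli.

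In the opposite direction the site at 137417794 to 137418386 on chromosome 4 led, at percentile 98.0 in ADR glomeruli (25.3-fold) and 7.11 in day 9 podocytes (3.58-fold). Its percentile was 49.0 in PBS glomeruli and 10.6 in PBS podocytes. The site at 34627281 to 34627838 on chromosome 2 had percentiles of 94.7 in ADR glomeruli and 4.11 at day 9, beside 90.7 in PBS glomeruli and 21.6 in PBS podocytes. The site at 17509360 to 17509818 on chromosome 7 had percentiles of 90.8 in ADR glomeruli and 0.164 at day 9, and it was weak in both vehicle lists, at 19.7 in PBS glomeruli and 0.707 in PBS podocytes. The remaining 2, at 29165791 to 29166229 on chromosome 6 and 98397934 to 98398530 on chromosome 15, had percentiles of 91.1 and 87.2 in ADR glomeruli against 1.18 and 0.224 at day 9. None of these 5 sites had a day 14 peak, but all lay in the weakest decile of the day 9 list, where 0.219% of peaks had one.

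Matched peaks were narrower in ADR glomeruli than in day 9 podocytes while their summits nearly coincided. The median width was 324 bp in ADR glomeruli and 560 bp in day 9 podocytes, and the ADR glomerular peak was the narrower in 11052 of the 12364 pairs (89.4%). The width ratio had a median of 0.618, with quartiles of 0.463 and 0.806, and 9227 ADR glomerular peaks (74.6%) lay wholly inside their day 9 partner. The shortest peak of each list also differed, at 177 bp in ADR glomeruli and 251 bp in day 9 podocytes, a ratio of 0.705. In the vehicle pair the shortest peaks stood at a ratio of 0.682, while the median width ratio was 0.805, with medians of 392 bp in PBS glomeruli and 499 bp in PBS podocytes. ADR glomerular peaks were also narrower than their PBS glomerular partners in 10004 of 13118 pairs (76.3%), at a median ratio of 0.810. For day 9 over PBS podocyte peaks the median ratio was 1.03. The part of fragment length, depth and enrichment in these widths was not tested.

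The 2 summits of a pair were a median of 29 bp apart, with quartiles of 12 and 59 bp, and 8629 pairs (69.8%, 69.0 to 70.6) had them within 50 bp. Summits more than 200 bp apart were found in 460 pairs. The distance fell with strength, with a median of 45 bp in the weakest of 4 equal groups of pairs by mean percentile and 18 bp in the strongest, where 85.1% lay within 50 bp against 53.8% in the weakest. The vehicle pair had a median of 27 bp and the ADR and PBS glomerular lists one of 17 bp. The most distant summits were 1038 bp apart, in a broad site at 164280305 to 164281842 on chromosome 2 with 19.0-fold enrichment in ADR glomeruli and 51.0-fold in day 9 podocytes. Next came 931 bp at 96833349 to 96833550 on chromosome 11 and 879 bp at 36115754 to 36116988 on chromosome 17.

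**Figure D5:**
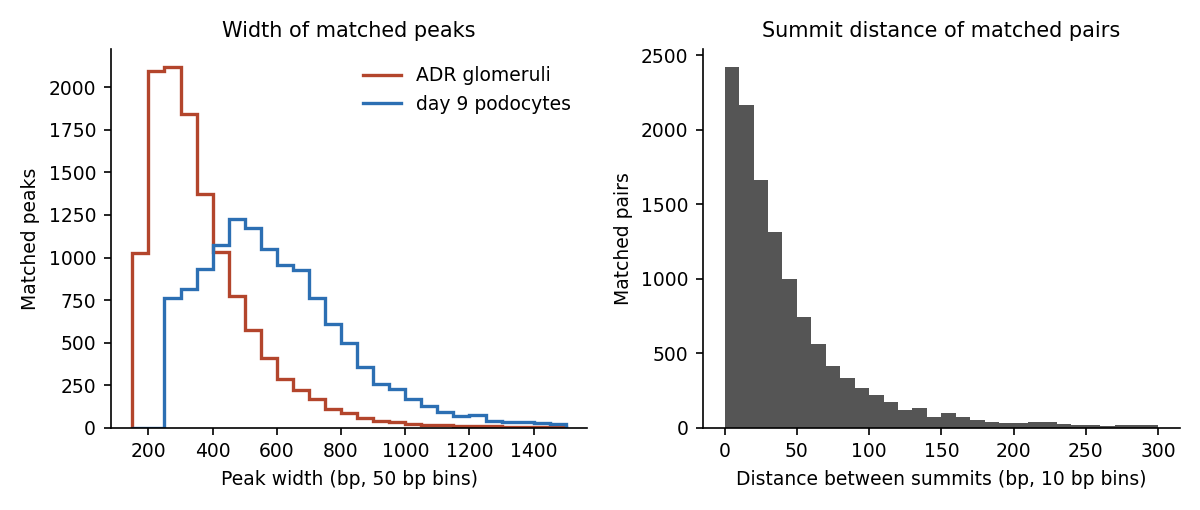
Left, widths of the 12364 matched pairs (x axis, bp) in ADR glomeruli and day 9 podocytes as counts per 50 bp bin, with 6 and 45 peaks over 1500 bp not drawn. Right, distance between the summits of a pair (x axis, bp) as counts per 10 bp bin, with 235 pairs over 300 bp not drawn. The ADR glomerular widths centre on 324 bp and the day 9 widths on 560 bp, and the summit distances fall away from 0 with a median of 29 bp.

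Broad day 9 peaks sometimes spanned several ADR glomerular peaks. In 437 cases a day 9 peak overlapped 2 or more of them, 899 ADR glomerular peaks in all, and these day 9 peaks had a median width of 1098 bp against 558 bp for those with a single partner. The reverse was seen for 85 ADR glomerular peaks, each with 2 day 9 partners. The broadest case was a 4083 bp day 9 peak at 127102583 to 127106665 on chromosome 10, with 28.4-fold enrichment, which held 4 ADR glomerular peaks, the strongest at 127103435 to 127104346 with 40.8-fold. A weaker day 9 peak at 79610715 to 79612891 on the same chromosome (5.05-fold) also held 4. A day 9 peak at 71069564 to 71071305 on chromosome 7 (34.4-fold) held 3. In the other direction, an ADR glomerular peak at 135100788 to 135101888 on chromosome 3 (29.3-fold) was the strongest of those with 2 partners, the stronger of them at 18.1-fold.

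Dense groups of sites present in only 1 of the lists changed in number when the lists were made equal in length. In windows of 100 kb, 7663 had an ADR glomerular summit and 10640 a day 9 summit, and 7096 had both, which is 92.6% of the ADR glomerular and 66.7% of the day 9 windows. Of 692 windows with 5 or more ADR glomerular summits, 3 (0.434%) had no day 9 summit, while of 2106 windows with 5 or more day 9 summits, 154 (7.31%) had no ADR glomerular summit. With lists of equal length, an alternative chosen after seeing the data, the count was 15 of 692 (2.17%, 1.32 to 3.55) for ADR glomeruli. For day 9 podocytes it was 10 of 745 (1.34%, 0.731 to 2.45), and these intervals, of counting error only, overlapped. This setting also removed the day 9 peaks of weakest caller p-value, and the parts of list length and peak strength were not tested. The windows named next were chosen after their counts were seen. The window at 11300001 to 11400000 on chromosome 8 held 7 ADR glomerular and 0 day 9 summits, with 1 in PBS glomeruli and 2 in PBS podocytes, and its ADR glomerular peaks had at most 8.59-fold enrichment. That at 74500001 to 74600000 on chromosome 15 held 5 in ADR glomeruli and 0 at day 9, with 1 in PBS glomeruli. The window at 100500001 to 100600000 on chromosome 3 held 0 ADR glomerular and 13 day 9 summits, the strongest with 31.6-fold enrichment, with 8 in PBS glomeruli and 4 in PBS podocytes. That at 126300001 to 126400000 on chromosome 3 held 0 in ADR glomeruli and 12 at day 9. On chromosome 13 the window at 110400001 to 110500000 had 0 in ADR glomeruli against 10 at day 9.

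Chromosomes differed in how the lists met. The share of ADR glomerular peaks with a day 9 peak ran from 75.3% (72.3 to 78.1) on chromosome 8 to 89.9% (85.5 to 93.0) on the X chromosome, which held 247 ADR glomerular and 662 day 9 peaks. Among chromosomes with peaks in both lists, the share of day 9 peaks with an ADR glomerular peak ran from 32.8% (29.3 to 36.4) on the X chromosome and 33.6% (31.2 to 36.1) on chromosome 13 to 49.0% (46.9 to 51.1) on chromosome 11. The number of ADR glomerular peaks per day 9 peak was 0.373 on the X chromosome and 0.651 on chromosome 11. The Y chromosome had 0 ADR glomerular and 25 day 9 peaks, beside 1 in PBS glomeruli and 22 in PBS podocytes, and the mitochondrial genome had 0 ADR glomerular and 6 day 9 peaks, beside 0 in PBS glomeruli and 6 in PBS podocytes. The labels used here give no sex of the animals. The 6 mitochondrial day 9 peaks had at most 4.02-fold enrichment.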

How the data were processed

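WT1 ChIP-seq libraries of ADR glomeruli and day 9 podocytes, grouped by sample title, were represented by 1 peak list per group, as were the vehicle and day 14 groups. Bowtie 0.12.7, MACS2 and the mm9 build are named in the submitters' processing notes. The control, cutoff, treatment of duplicates and pooling of replicates were not given in the sources used here; 1 input library each is labelled for ADR and PBS glomeruli. Each peak carries a fold enrichment deposited by the authors, a ratio over background that was used only to rank peaks in their own list. Columns of −log10 p and of −log10 q, also deposited by the authors, served as an alternative rank and a filter. A deposited integer score entered no result.

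Matching, ranks, widths and summits were computed from starts, ends and summit offsets with Python 3.11.15, numpy 2.4.6, pandas 2.3.3 and scipy 1.17.1, and drawn with matplotlib 3.10.9. Where a peak had several partners the strongest was used for single sites, and one-to-one pairs for ranks, widths and summits. Overlap and pairing were tested on simulated peaks whose partners were known. Named sites were the 5 highest pairs by mean percentile, the 5 one-to-one pairs furthest apart in percentile in each direction, the 5 strongest unmatched peaks of each list, the 3 pairs with the most distant summits and the 3 peaks with most partners in each list. Alternatives were overlap by 50% of the shorter peak, summits no more than 200 bp apart, −log10 q of 10 or more, lists of equal length, the 500 strongest peaks, ranking by caller p and all overlapping pairs. Windows were named after their counts were seen. Genes, gene lists and motifs were not analysed, for want of an mm9 annotation and genome. The comparison, its alternatives and the naming rule were chosen with earlier results of these data known.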

Additional observations from a re-analysis of the deposited data

How the results depend on the processing

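The limits are those of 1 list per group. No paired analysis was possible because the files hold 1 peak list for each group, and no replicate could be left out for the same reason; read depth, the caller's cutoff and the number of libraries differed or are unknown, and no share or rank has a replicate check. Of 47 alternative values 19 stayed within the 95% interval of the reported value (for the rank correlation, within 0.05 of it; for counts, within 1.5 times) and 28 moved outside it. The share of ADR glomerular peaks with a day 9 peak (80.1%) was 79.3% when 50% of the shorter peak had to be covered, 74.7% with summits within 200 bp, 88.9% at a −log10 q of at least 10 and 60.5% with lists of equal length. The share of day 9 peaks with an ADR glomerular peak (40.5%) was 38.9%, 28.1% and 58.1% under the last 3 of these. Among the 1000 strongest, 97.8% of ADR glomerular peaks had a day 9 summit within 200 bp; of day 9 peaks 92.4% of the 500 strongest and 94.5% of those ranked by caller p had an ADR glomerular peak. The rank correlation of fold enrichment (0.399) was 0.325 at the stricter q, 0.285 with equal lengths and 0.533 by caller p. In the same order of stricter q, equal lengths and all overlapping pairs, the width ratio (0.618) was 0.657, 0.571 and 0.601, the median summit distance (29 bp) was 23, 25 and 31 bp, and the share of summits within 50 bp (69.8%) was 77.2%, 74.2% and 66.8%. Ranked by caller p, the weakest decile was matched in 56.4% of ADR glomerular and 14.8% of day 9 peaks, an alternative chosen after seeing the data. So were those for pairs at least 50 points apart, where ADR glomeruli were lower in 524 and higher in 1412 with equal lengths (1098 and 759 as deposited), and for dense windows, where equal lengths gave 15 for ADR glomeruli and 10 for day 9 (3 and 154 as deposited). Fewer peaks entered under the stricter q and equal lengths, and with equal lengths the day 9 percentiles of the pairs at least 50 points apart were taken anew in the shortened list. Beyond this the cause of these moves was not tested. The presence of strong unmatched sites in the vehicle list of the same preparation was 100% under each setting tried, over 1 to 5 ADR glomerular and 38 to 116 day 9 peaks.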
